A study of Mus musculus with 6 samples.

Results

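The 7 members Car1, Car2, Car4, Car8, Car9, Car12 and Car13 of the carbonic anhydrase family were followed through every cell class of mouse colon tumours profiled by single-cell RNA sequencing. They were taken by symbol and are 7 of the 16 carbonic anhydrase genes among the 31053 genes of the count matrices. The tumours came from male mice of 2 models, with 3 libraries each, and were described as whole colon tumour collected at clinical endpoint. The Apc ICI mice carried VilCreER Apcfl/fl, and their labels give the group as intracolonic induction and the treatment as NA. The shared protocol text describes that induction, for Apc-deficient mice, as 1 injection of 70 ul of 100 uM 4-OH tamoxifen into the submucosa of the colon, and it was read as applying to them. The AOM PN mice carried VilcreER P53fl/fl Notch1Tg, have the treatment label AOM and, by the same text, received 2 mg tamoxifen into the peritoneum and, from 4 days later, the carcinogen azoxymethane (AOM) at 10 mg/kg once a week for 6 weeks. Their label gives the group as ageing tumour, and no ages were given. Both models carry a tamoxifen-inducible Cre under a villin promoter, which acts in gut epithelium, so the recombined alleles belong to epithelial cells while blood and immune cells are of the host. The models differ in alleles, induction route and labelled treatment at once, and no batch, date or animal identifier was given, so these factors and any batch cannot be told apart. Nothing states that the 3 libraries of a model came from separate animals, so the p-values cover only library-to-library spread, which may be technical.

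Carbonic anhydrases are zinc enzymes that interconvert carbon dioxide and bicarbonate with a proton. Car1, Car2 and Car13 are cytosolic, Car4 is held on the outer cell surface by a lipid (GPI) anchor, and Car9 and Car12 span the membrane with an extracellular catalytic domain. Car8 lacks catalytic activity and binds the inositol trisphosphate receptor. In the colon, Car1, Car2 and Car4 are enzymes of surface absorptive cells that supply bicarbonate and protons for ion exchange. Car2 also serves carbon dioxide transport in red cells, and Car9 is a classical target of hypoxia-inducible factor, which binds the core ACGTG.

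The genes lie on 4 chromosomes of mm10 in the GENCODE M21 annotation. Car13 (chr3:14641727-14663002, + strand), Car1 (chr3:14766216-14808368, - strand) and Car2 (chr3:14886273-14900770, + strand) are neighbours on chromosome 3. Car8 (chr4:8143362-8239041, - strand) and Car9 (chr4:43506966-43513729, + strand) share chromosome 4, while Car12 lies at chr9:66713686-66766845 and Car4 at chr11:84957786-84966044, both on the + strand. Promoter windows were at hand for the 3 membrane enzymes and are shown because these genes split in the tumours: Car4 and Car12 differed between the models and Car9, the hypoxia target, did not pass the test. Each window spans 250 bases before to 50 bases after the RefSeq start in GRCm38.p6, 5′ to 3′ on the + strand, at chr11:84957504-84957803 for Car4, chr4:43506776-43507075 for Car9 and chr9:66713436-66713735 for Car12. Capitals mark ACGTG on either strand, written CACGT where it lies on the other strand.
Car4: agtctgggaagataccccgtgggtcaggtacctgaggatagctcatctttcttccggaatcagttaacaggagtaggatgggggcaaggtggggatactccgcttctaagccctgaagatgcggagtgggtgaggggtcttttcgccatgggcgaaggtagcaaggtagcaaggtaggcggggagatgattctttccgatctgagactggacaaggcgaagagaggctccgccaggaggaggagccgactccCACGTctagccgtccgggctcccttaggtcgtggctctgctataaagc
Car9: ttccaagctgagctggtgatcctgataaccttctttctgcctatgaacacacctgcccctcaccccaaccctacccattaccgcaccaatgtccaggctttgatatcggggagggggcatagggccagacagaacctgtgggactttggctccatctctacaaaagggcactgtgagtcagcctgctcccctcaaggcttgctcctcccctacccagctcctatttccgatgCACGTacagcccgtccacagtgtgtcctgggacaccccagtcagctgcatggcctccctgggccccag
Car12: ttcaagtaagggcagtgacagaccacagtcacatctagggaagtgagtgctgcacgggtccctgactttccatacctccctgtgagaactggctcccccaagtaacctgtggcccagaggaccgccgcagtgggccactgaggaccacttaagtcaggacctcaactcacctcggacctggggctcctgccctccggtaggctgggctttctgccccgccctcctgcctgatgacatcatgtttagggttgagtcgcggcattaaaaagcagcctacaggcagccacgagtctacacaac
ACGTG occurred once in the Car9 window, its first base 18 bases before the RefSeq start (position -18). It occurred once in the Car4 window at position 3, just after the RefSeq start, while the Car12 window held none. For Car4 and Car9 the RefSeq start differs from the GENCODE start given above. Against the GENCODE starts the sides are swapped, with the Car9 motif inside the gene and the Car4 motif before it. Of 32817 distinct promoter windows of the same length, 19.6% held ACGTG on either strand. TATAAA on either strand occurred in the Car4 window, among the bases after the start, and in 13.6% of all windows. The motif AGATAA, bound by factors of the red cell and mast cell lineages, occurred in none of these 3 windows and in 11.2% of all. Only this exact sequence was searched for, so other forms of the site were not counted. No 2 of these motifs overlapped. The windows held 15 CpG dinucleotides for Car4, 5 for Car9 and 9 for Car12, at a GC content of 57.3%, 58.3% and 58.3%.

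After filtering, 4726 to 6804 cells per Apc ICI library and 8060 to 11399 per AOM PN library were kept, and the deposited matrices held 59309093 to 98583066 UMIs each (unique molecular identifiers, which count molecules). Haemoglobin genes took 1.87% to 61.4% of a library's UMIs, and 5.50% to 12.9% of the cells passing the other filters were predicted doublets and left out. Any 2 libraries shared 10 to 52 cell barcodes, 0.145% to 0.508% of the barcodes of the smaller library. Cells were clustered without the carbonic anhydrase genes and named from marker lists, so a class name means cells like that type. Epithelial-like cells numbered 521, 941 and 660 in Apc ICI replicates 1 to 3 and 902, 621 and 456 in AOM PN, and their median depth was 2882 to 6542 UMIs in Apc ICI against 1130 to 1634 in AOM PN. Erythroid-like cells numbered 959, 480 and 1945 against 1135, 299 and 73, and mast-like cells 14, 16 and 18 against 1160, 229 and 2403. Levels below are in CPM, a gene's UMIs per 1000000 UMIs of the summed class in a library, and a sum of fewer than 20 cells was not used.

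In the epithelial-like cells, Car2, Car12, Car13 and Car4 were higher in AOM PN tumours, and Car1, Car8 and Car9 did not pass the test. Tests used edgeR's quasi-likelihood test on the summed counts with Benjamini-Hochberg adjustment over all genes tested, and a gene was called at an adjusted p below 0.05. Thus 4 of 7 members were called, all higher in AOM PN. Of all 11888 genes tested in this class, 32.1% were called in either direction, 17.1% higher and 14.9% lower in AOM PN, with a median log2 change near 0 over all genes.

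**Figure D1:**
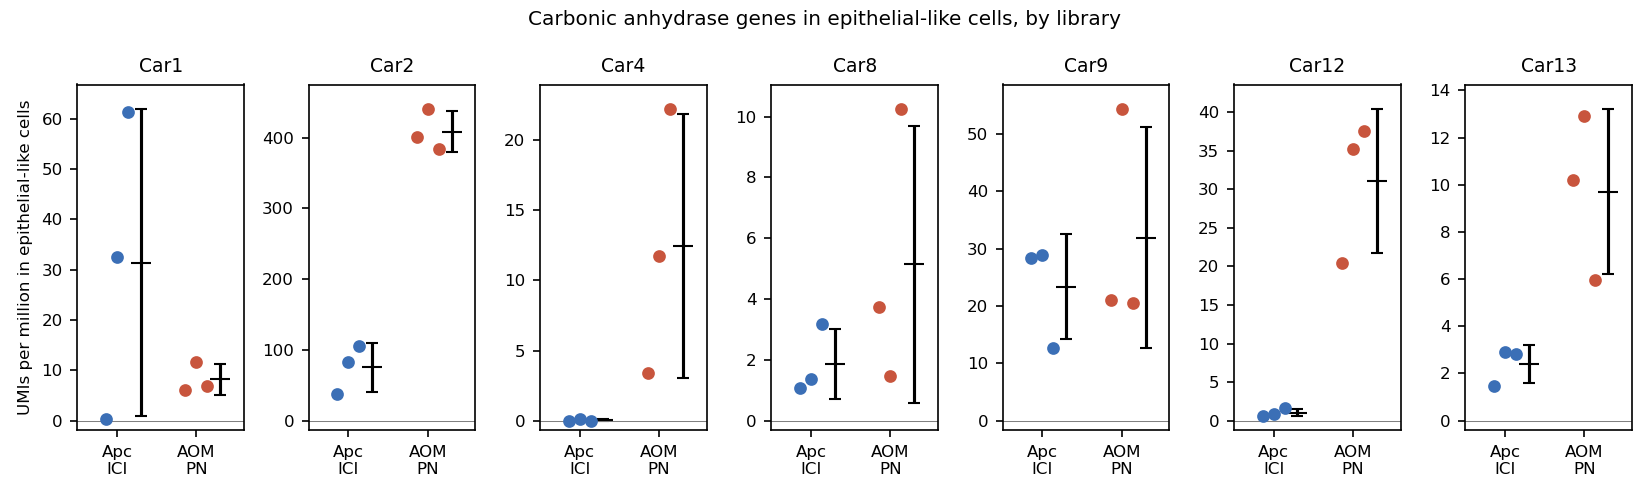
Level of each carbonic anhydrase gene in the summed epithelial-like cells of each library, in CPM on a separate linear axis per gene. Points are libraries, and the black bar beside them is the mean with its SD over 3 libraries per model. Car2, Car12, Car13 and Car4 do not overlap between the models, with Car2 at 37.9 to 105.7 CPM in Apc ICI against 384 to 440 CPM in AOM PN, whereas Car1, Car8 and Car9 overlap. The share of all genes without overlap was not counted.

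Car2, the fast cytosolic enzyme of red cells and many epithelia, stood at 37.9, 82.9 and 105.7 CPM in Apc ICI replicates 1, 2 and 3 and at 401, 440 and 384 CPM in AOM PN. All AOM PN libraries lay above all Apc ICI libraries, with means of 75.5 ± 34.5 against 408 ± 28.7 CPM (SD, n = 3 each), a 5.41-fold difference. The fitted log2 change was 2.49 ± 0.35 (SE, edgeR adjusted p = 0.000673). It kept its call under every alternative run, at 2.15 to 2.81 with adjusted p-values up to 0.00348. Because red cells carry Car2, haemoglobin in the epithelial sums bears on this value. All 8 erythroid markers were seen in the 3 Apc ICI sums, at 6763 to 22320 CPM together, and 6 or 7 of 8 in the AOM PN sums, at 1740 to 20776 CPM, with Slc4a1, a red cell membrane protein, at 0 in AOM PN replicates 1 and 2. At the ratio of Car2 to haemoglobin UMIs of the erythroid-like cells of the same library, the epithelial sums would hold 47.5, 31.1 and 76.0 Car2 UMIs in Apc ICI and 30.9, 13.5 and 1.29 in AOM PN. They held 286, 1282 and 597 in Apc ICI and 1180, 1499 and 450 in AOM PN.

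Car13, a cytosolic enzyme next to Car1 and Car2 in the genome, was sparse, at 1.46, 2.91 and 2.83 CPM in Apc ICI against 10.2, 12.9 and 5.97 CPM in AOM PN. The groups did not overlap, and the means of 2.40 ± 0.818 and 9.70 ± 3.50 CPM (SD, n = 3 each) were 4.04-fold apart. These levels rest on 11, 45 and 16 UMIs in Apc ICI and 30, 44 and 7 in AOM PN. The 7 UMIs of AOM PN replicate 3 came from 4 cells. The log2 change was 2.13 ± 0.39 (SE, edgeR adjusted p = 0.00283).

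Car1, the slower cytosolic enzyme typical of colonocytes, went the other way without passing the test. It stood at 0.397, 32.4 and 61.3 CPM in Apc ICI against 6.12, 11.7 and 6.83 CPM in AOM PN. One Apc ICI library lay below all AOM PN libraries and the other 2 above them. The log2 change was -1.80 ± 1.07 (SE, edgeR adjusted p = 0.231). A few cells carried these counts: of 501 Car1 UMIs in Apc ICI replicate 2, found in 29 cells, 1 cell held 239 and 5 cells held 92.6%, and in replicate 3 5 cells held 71.7% of 346. Without Apc ICI replicate 1 the change was -2.39 (adjusted p = 0.0021), with predicted doublets kept it was -2.53 (adjusted p = 0.0141), and with no filter on low counts it was -1.88 (adjusted p = 0.022). Doublet calls held 47.1% of all 2297 Car1 UMIs in the matrices, a larger share than for the other 6 members.

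Of the 7 members, the transmembrane enzyme Car12 had the lowest adjusted p. It stood at 0.662, 0.906 and 1.59 CPM in Apc ICI against 20.4, 35.2 and 37.5 CPM in AOM PN. The lowest AOM PN library lay above the highest Apc ICI library, and the means of 1.05 ± 0.483 and 31.1 ± 9.30 CPM (SD, n = 3 each) were 29.5-fold apart. The log2 change was 4.97 ± 0.35 (SE, edgeR adjusted p = 4.86e-05), and it kept its call under every alternative run, with adjusted p-values up to 0.000343. In AOM PN, 5 cells held 18.3% to 27.3% of a library's Car12 UMIs. With predicted doublets kept, Car12 stood at 1.32, 0.915 and 1.01 CPM in Apc ICI against 13.6, 27.2 and 15.9 CPM in AOM PN.

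Car4, the GPI-anchored enzyme, had 0, 2 and 0 UMIs in the Apc ICI epithelium and 10, 40 and 26 UMIs in that of AOM PN. This is 0, 0.129 and 0 CPM against 3.40, 11.7 and 22.2 CPM, with no overlap. The pooled rate was 145 times higher in AOM PN, with a 95% counting interval of 38.7 to 1217 that covers counting error only. The gene was called by edgeR (adjusted p = 0.000427), but the AOM PN UMIs came from only 5, 9 and 6 cells per library, of which 5 cells held 82.5% to 100%.

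Car9, the hypoxia-inducible enzyme, stood at 28.3, 28.9 and 12.8 CPM in Apc ICI against 21.1, 54.3 and 20.5 CPM in AOM PN. The groups overlapped, and the log2 change was 0.57 ± 0.41 (SE, edgeR adjusted p = 0.323). Its sign rested on 1 library, since it was -0.11 without AOM PN replicate 2. The acatalytic Car8 stood at 1.06, 1.36 and 3.19 CPM against 3.74, 1.47 and 10.2 CPM, again with overlap, at a log2 change of 1.31 ± 0.68 (SE, edgeR adjusted p = 0.175). With predicted doublets kept the Car8 change was 1.61 (adjusted p = 0.0137). Markers of mast cells, the cells with the highest Car8 level in AOM PN, were also at higher levels in the AOM PN epithelial sums, with 9 of 9 markers seen in every library at 32.4 to 90.7 CPM in Apc ICI against 220 to 2950 CPM in AOM PN. At the ratio of Car8 to 5 mast cell protease genes in the mast-like cells of the same library, the AOM PN epithelial sums would hold 7.18, 1.27 and 3.79 Car8 UMIs, and they held 11, 5 and 12. The Apc ICI sums would hold 0.660, 1.94 and 3.53, and held 8, 21 and 18. There the ratio rests on only 14, 16 and 18 mast-like cells.

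Cell depth differed between the models, so the members were also read at matched depth. Predicted doublets were left out here too. With them kept, epithelial-like cells numbered 653, 1078 and 812 in Apc ICI and 1384, 761 and 648 in AOM PN. How far their removal shaped the depth gap was not tested. Among cells of 500 to 1500 UMIs, Car2 stood at 56.4 CPM in Apc ICI against 257 CPM in AOM PN, among those of 1500 to 5000 UMIs at 60.4 and 245 CPM, and above 5000 UMIs at 76.8 and 499 CPM. Car12 stood at 0, 2.44 and 0.904 CPM in these strata of Apc ICI and at 63.3, 60.5 and 13.9 CPM in those of AOM PN. Cells were pooled over the libraries of a model in each stratum, so these values carry no spread between libraries and no test. Both pooled levels were higher in AOM PN in each stratum, while the Car12 level of AOM PN was lowest in the deepest cells.

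With each cell thinned to 1500 UMIs, Car2 was detected in 6.83% ± 2.18 of the Apc ICI and 31.4% ± 3.72 of the AOM PN epithelial-like cells (SD, n = 3 each). Shallower cells were left out, 150 to 212 per Apc ICI and 258 to 564 per AOM PN library. Unthinned shares were 21.3% and 30.1%. In neutrophil-like cells thinned to the same depth, taken as the level that free RNA in droplets can give, the Car2 share was 1.32% in Apc ICI and 0.852% in AOM PN, and unthinned it was 2.60% and 1.56%. Their Car12 share was 0% and 0.0109%, that of Car13 0.0343% and 0.00946% and that of Car4 0.170% and 1.17%. Some neutrophil-like cells held many Car4 UMIs, so its share is no measure of free RNA. Car12 was detected in 0.313% and 5.97% of thinned epithelial-like cells, Car13 in 0.374% and 1.47%, and Car4 in 0% and 1.38%, where 0 cells allow a share of up to 0.407% to 0.809% per Apc ICI library, a limit on cells with a Car4 UMI at this depth and not on cells expressing the gene. Unthinned, these shares were 1.12% and 8.18% for Car12, 2.20% and 2.93% for Car13 and 0.0708% and 1.11% for Car4. At 1500 UMIs the groups did not overlap for any of these 4 genes, and a two-sided exact permutation test over libraries gave p = 0.1, the smallest value that 3 against 3 libraries allow. These genes were already called above in the same libraries, so the separation is no further evidence. The share of all genes without overlap was not counted. Other depths did not keep the separation for every gene. Car4 stayed without overlap at 1000 and 3000 UMIs and unthinned, Car2 had p = 0.2 unthinned, and Car12 had p = 0.2 at 3000 UMIs (exact permutation tests). The Car13 share overlapped at each other depth, with exact permutation p = 0.2 at 1000 UMIs, 0.4 at 3000 UMIs and 0.7 unthinned. The shares of Car1 (1.67% and 0.765%, exact permutation p = 0.7), Car8 (0.300% and 0.604%, p = 0.8) and Car9 (3.18% and 3.78%, p = 0.8) overlapped.

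**Figure D2:**
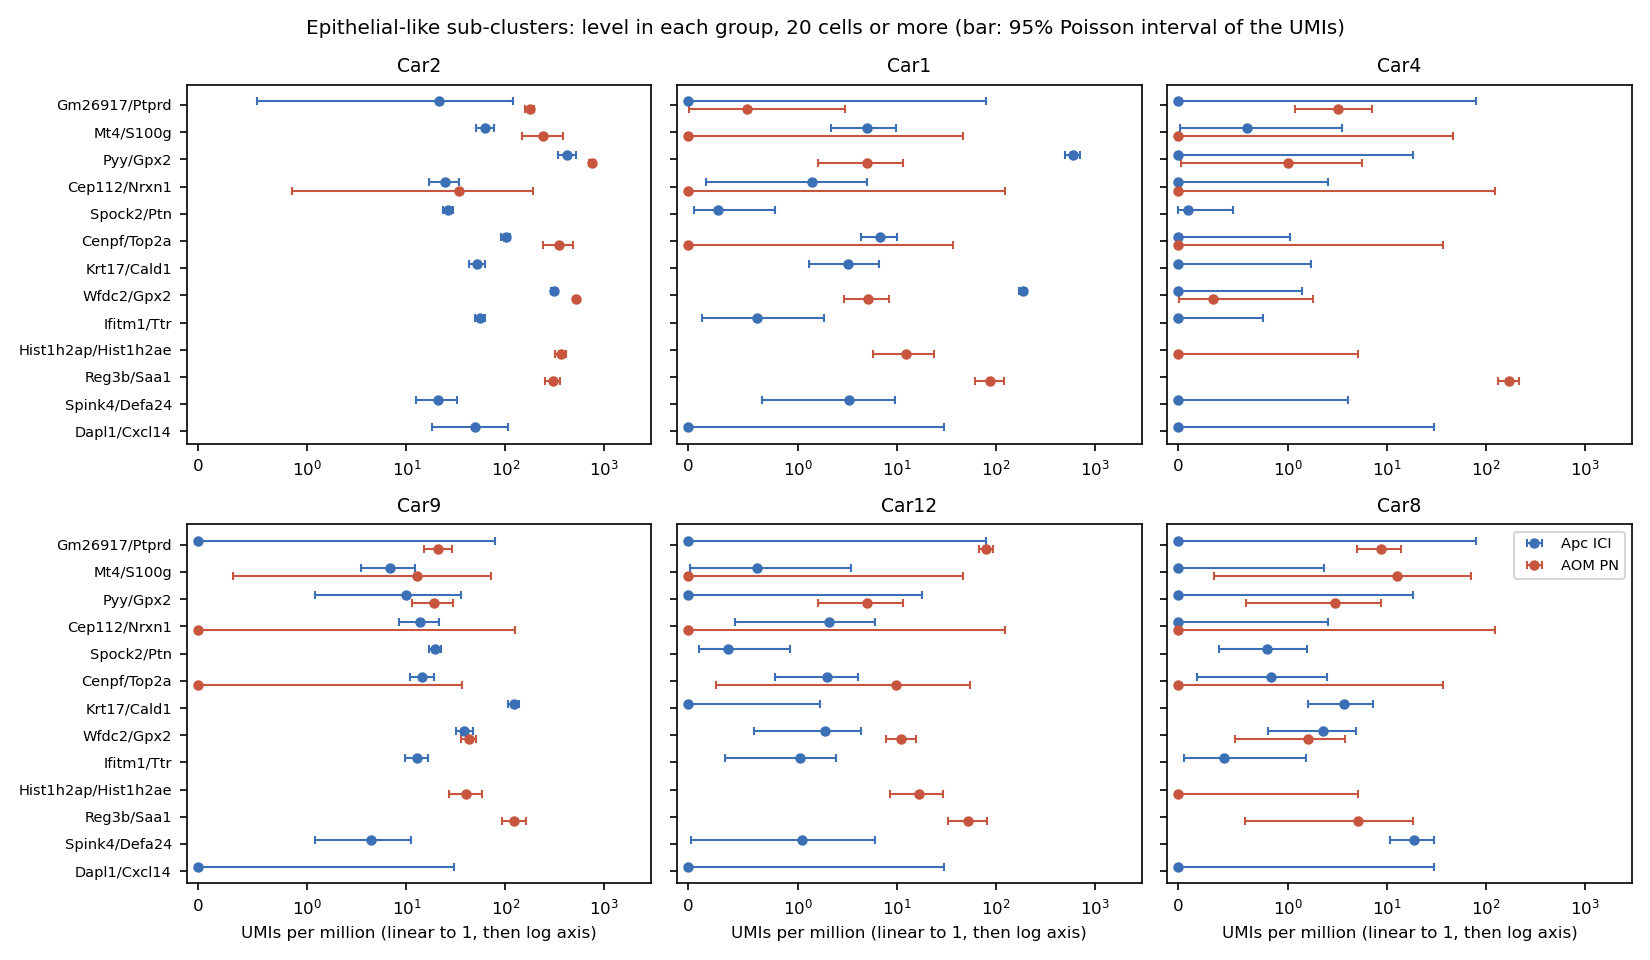
Level of 6 carbonic anhydrase genes, in CPM on an axis that is linear to 1 and logarithmic above, in sub-clusters of the epithelial-like cells with at least 20 cells in a model, pooled over its 3 libraries, with exact 95% counting intervals. Car2 is highest in the Pyy and Gpx2 sub-cluster of both models (423 and 746 CPM), Car4 in the Reg3b and Saa1 sub-cluster of AOM PN (172 CPM), and Car9 reaches 122 CPM in the Krt17 and Cald1 sub-cluster of Apc ICI and 124 CPM in the Reg3b and Saa1 sub-cluster of AOM PN.

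The epithelial-like class was made of different cells in the models, and the members were spread unevenly over them. Sub-clusters are named by leading genes and pooled over the libraries of a model, so their values carry counting error only and no test. A sub-cluster led by Gm26917 and Ptprd held 1196 AOM PN and 24 Apc ICI cells, whereas one led by Mt4 and S100g held 558 Apc ICI and 49 AOM PN cells. Car2 was highest in cells led by Pyy and Gpx2, at 423 CPM in 83 Apc ICI and 746 CPM in 349 AOM PN cells, followed by those led by Wfdc2 and Gpx2, at 312 and 517 CPM. It was also higher in AOM PN in the cycling cells led by Cenpf and Top2a, at 102 against 349 CPM, and in those led by Mt4 and S100g, at 62.7 against 243 CPM. Within the shared sub-clusters the Car2 gap was therefore narrower in the Gpx2-rich cells than over the whole class, a difference that was not tested.

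Car1 stood at 600 CPM in Pyy and Gpx2 cells and 188 CPM in Wfdc2 and Gpx2 cells of Apc ICI, and at 4.98 and 5.11 CPM in those of AOM PN. The libraries of Apc ICI differed: of the 122 UMIs in Pyy and Gpx2 cells 117 came from replicate 3 (1045.5 CPM in 44 cells), while the 20 such cells of replicate 1 held 0. Of the 504 UMIs in Wfdc2 and Gpx2 cells, replicate 2 held 313 (269 CPM) and replicate 3 190 (245 CPM). In AOM PN its highest level was 88.4 CPM in the 100 cells led by Reg3b and Saa1. The same 100 cells held 68 of the 76 Car4 UMIs of AOM PN (172 CPM), detected in 16% of them. Car9 reached 124 CPM there, and 122 CPM in the 164 Apc ICI cells led by Krt17 and Cald1, at 114, 132 and 75.8 CPM in replicates 1, 2 and 3. Car12 belonged mainly to the Gm26917 and Ptprd cells, which held 149 of its 224 AOM PN UMIs, at 63.3, 107 and 66.2 CPM in replicates 1 to 3 (80.3 CPM pooled). These cells were shallow, with a median of 1184 UMIs over both models, and scarce in Apc ICI. Most Car12 UMIs of AOM PN thus lay in cells with few counterparts in the other model. In the Wfdc2 and Gpx2 cells, present in both models, Car12 stood at 1.87 CPM in Apc ICI against 11.2 CPM in AOM PN, while Car13 stood at 12.7 and 12.8 CPM. Car8 was at most 18.6 CPM, in Apc ICI cells led by the secretory genes Spink4 and Defa24.

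**Figure D3:**
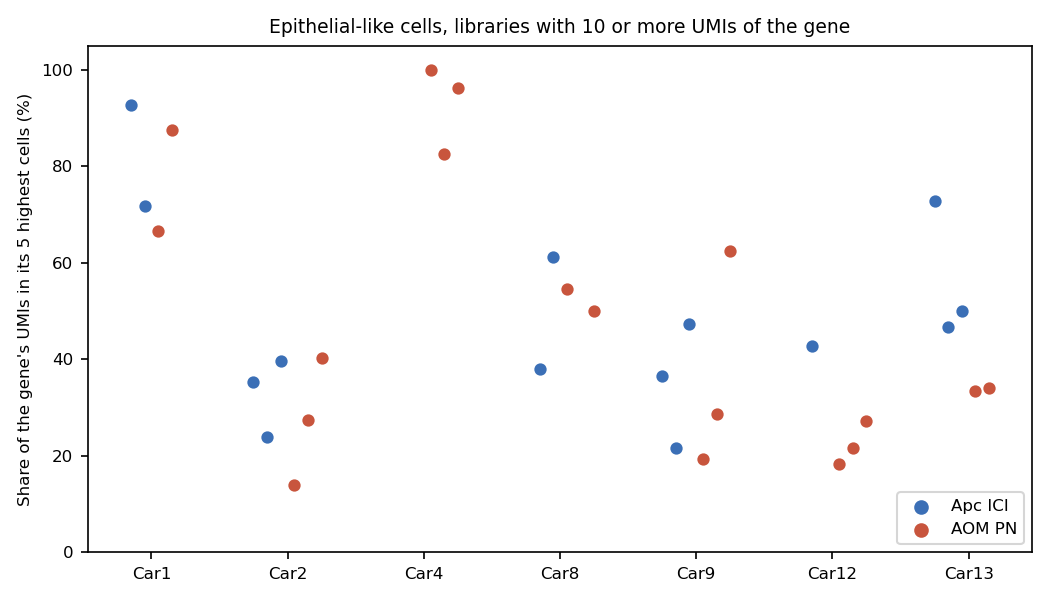
Share of each gene's UMIs, in percent, held by the 5 cells with most UMIs of it, with 1 point for each library that had at least 10 UMIs of the gene in epithelial-like cells. The top 5 cells held 92.6% of the Car1 UMIs of Apc ICI replicate 2 and 82.5% to 100% of the Car4 UMIs of AOM PN, against 18.3% to 27.3% for Car12 in AOM PN.

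In erythroid-like cells no difference of Car2 between the models was called. It stood at 386, 281 and 563 CPM in Apc ICI against 465, 432 and 588 CPM in AOM PN, with overlap and a log2 change of 0.23 ± 0.34 (SE, edgeR adjusted p = 0.931). Car1 was low, at 0.292, 2.50 and 2.06 CPM against 0.384, 1.06 and 2.74 CPM, with a log2 change of -0.91 ± 0.78 (SE, edgeR adjusted p = 0.806). None of the members was called, where 4.03% of the 1912 genes tested were (1.99% higher and 2.04% lower in AOM PN), and an adjusted p that misses the threshold does not show equal levels. Car13 and Car4 had 0 UMIs in every erythroid-like sum, and Car8, Car9 and Car12 had 0 to 17. Haemoglobin fills these sums, so with haemoglobin left out of the total Car2 stood at 6772, 4830 and 8126 CPM in Apc ICI against 5613, 9107 and 8682 CPM in AOM PN. In the erythroid-like cluster led by Alas2 and Bpgm, Car2 was detected in 53.0% of Apc ICI and 54.8% of AOM PN cells, at 141 and 234 CPM.

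In the main joint fit the change of Car2 between the models differed between these 2 classes, a call that was lost in 3 of 13 alternatives. In a joint fit with the library as a term, the epithelial log2 change exceeded the erythroid one by 3.10 ± 0.68 (SE, edgeR adjusted p = 0.00132), or by 2.54 relative to the median of 0.56 over all genes. In this comparison 0.988% of 12247 genes were called in either direction (0.759% with the epithelial change above the erythroid one), and Car2 was the only member called. Without Apc ICI replicate 1 the difference was 2.53 (adjusted p = 0.386) and without Apc ICI replicate 3 it was 3.02 (adjusted p = 0.0603).

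**Figure D4:**
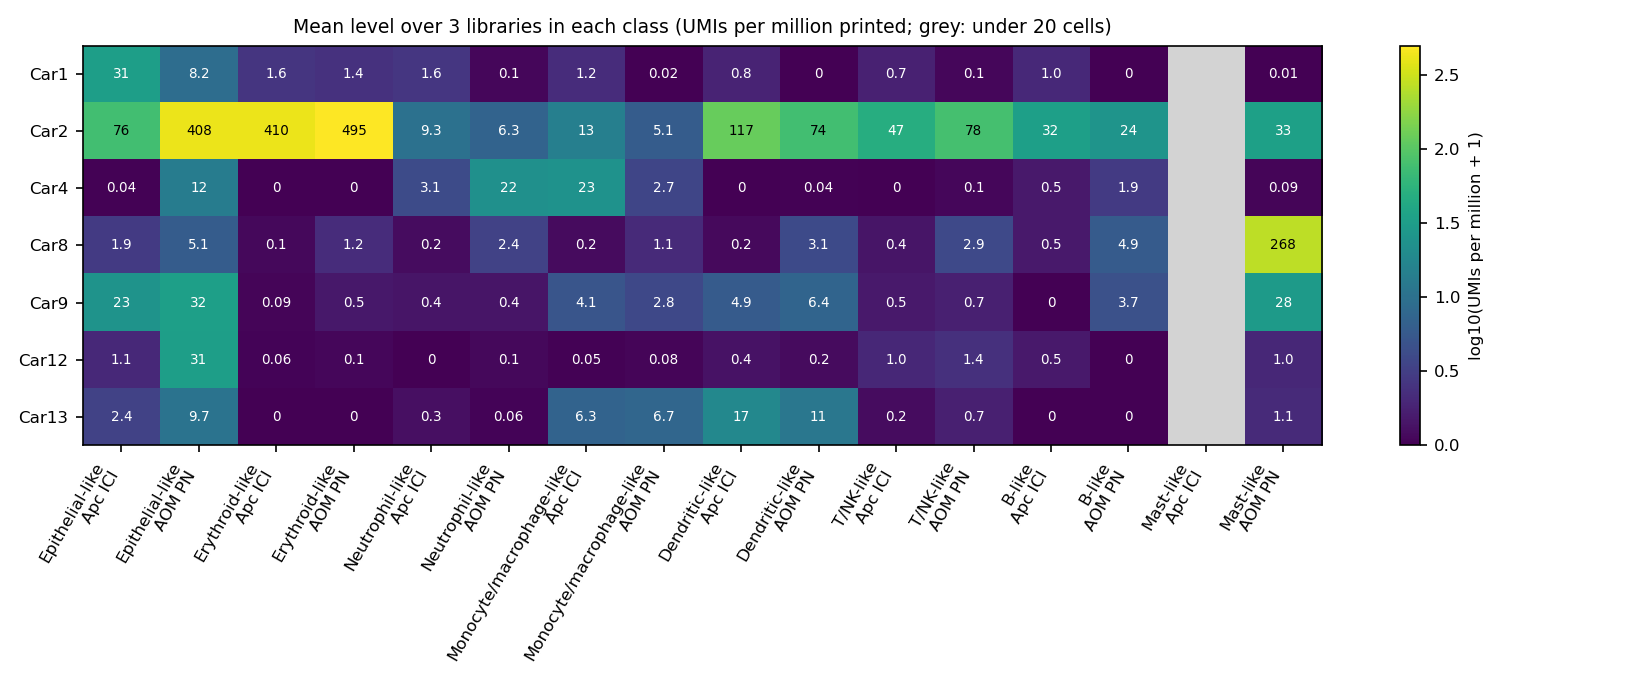
Heat map of the mean level of each carbonic anhydrase gene (rows) over 3 libraries in each cell class and model (columns), with the mean in CPM printed in each cell and the colour showing log10(CPM + 1). Car2 is highest in erythroid-like cells of both models (410 and 495 CPM), next to epithelial-like cells in AOM PN (408 CPM), and Car8 is highest in AOM PN mast-like cells (268 CPM), while the grey column had fewer than 20 mast-like cells per Apc ICI library.

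Across classes, the order of levels was read within each model. For Car2 in Apc ICI, erythroid-like cells (410 CPM) lay above dendritic-like (117 CPM) without overlap, and below these epithelial-like (75.5 CPM), T/NK-like (46.5 CPM) and B-like cells (32.3 CPM) overlapped with their neighbours. At the erythroid-like ratio of Car2 to haemoglobin, the T/NK-like sums of Apc ICI would hold 47.0, 10.1 and 61.5 Car2 UMIs. They held 88, 26 and 93. The B-like sums would hold 20.5, 1.26 and 10.0, and held 23, 14 and 15. The dendritic-like sums would hold 7.41, 6.80 and 22.4, and held 103, 283 and 99. In AOM PN, erythroid-like (495 CPM) and epithelial-like cells (408 CPM) overlapped, and epithelial-like cells lay above T/NK-like (77.7 CPM) and dendritic-like cells (74.1 CPM) without overlap. Erythroid-like cells held 89.5%, 44.9% and 92.3% of the Car2 UMIs of kept cells in Apc ICI replicates 1 to 3 and 59.3%, 39.8% and 17.2% in AOM PN, and epithelial-like cells 4.84%, 39.5% and 4.20% against 19.2%, 29.3% and 18.0%. Both shares overlapped between the models. Car12 in AOM PN was higher in epithelial-like cells than in the next class, T/NK-like (1.36 CPM), without overlap, whereas in Apc ICI these 2 classes overlapped. Epithelial-like cells held 83.4% of the pooled Apc ICI UMIs of Car1 and 70.2% of the AOM PN ones, but in Apc ICI replicate 1, with 11 UMIs in all, they held 27.3%.

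Within the white cells, Car2 was led by small clusters. In dendritic-like cells led by Fscn1 and Ccl22, genes of migratory dendritic cells, Car2 stood at 310 CPM in Apc ICI against 397 CPM in AOM PN. In lymphoid cells led by Nkg7 and Xcl1, genes of cytotoxic and natural killer cells, it stood at 219 and 254 CPM. Car13 in Apc ICI was higher in dendritic-like cells, at 13.3 to 22.0 CPM, than in the next class, monocyte/macrophage-like cells, without overlap. In AOM PN dendritic-like (5.80 to 15.8 CPM) and epithelial-like cells (5.97 to 12.9 CPM) overlapped. Among dendritic-like cells the Fscn1 and Ccl22 cluster stood at 31.8 and 51.2 CPM. In monocyte/macrophage-like cells Car13 stood at 5.89, 8.44 and 4.52 CPM in Apc ICI against 13.1, 4.23 and 2.82 CPM in AOM PN.

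The Car8 UMIs of AOM PN lay almost wholly in mast-like cells, the granule-bearing cells of allergy. In AOM PN mast-like cells it stood at 289, 277 and 238 CPM (268 ± 26.6, SD, n = 3), detected in 58.3%, 71.2% and 74.9% of cells, and the next class with enough cells in all 3 libraries, epithelial-like cells at 5.15 CPM, did not overlap. These cells held 8186 of the 8538 Car8 UMIs of kept AOM PN cells, or 95.9%. Car8 stood at 263 CPM in the mast cluster led by Tpsb2 and 216 CPM in that led by Mcpt2 and Mcpt1, all mast cell proteases. Basophil-like cells, which share mast cell genes, stood at 122 CPM. Apc ICI libraries held 14 to 18 mast-like cells each, with 11, 12 and 38 Car8 UMIs, too few cells for a test between the models. Car9 was also present in AOM PN mast-like cells, at 30.4, 24.5 and 29.7 CPM, next to epithelial-like cells at a mean of 32.0 CPM, with overlap. Mast-like cells held 55.7%, 16.9% and 81.5% of the Car9 UMIs of AOM PN replicates 1 to 3, or 62.5% pooled and 35.6% without replicate 3, and epithelial-like cells held 20.1%, 55.9% and 2.65%. In Apc ICI epithelial-like cells held 77.4% to 87.7% of a library's Car9 UMIs and lay above every other class without overlap. The other members in AOM PN mast-like cells stood at 20.9 to 51.6 CPM for Car2, and Car1, Car4, Car12 and Car13 at 0 to 1.41 CPM.

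Tests in 5 classes of white cells called 2 pairs of member and class, both in neutrophil-like cells and both higher in AOM PN. In that class 32.8% of 9490 genes were called in either direction and 15.3% higher in AOM PN. Car8 stood at 0.176, 0.496 and 0 CPM in Apc ICI against 2.11, 1.15 and 4.01 CPM in AOM PN, with a log2 change of 3.35 ± 0.71 (SE, edgeR adjusted p = 0.00866). The mast cell marker list was also higher: 9 of 9 were seen in every neutrophil sum, at 1375 to 1917 CPM together in Apc ICI and 2909 to 4945 CPM in AOM PN. In Apc ICI few of these counts were of proteases. The 5 protease genes gave 139, 1188 and 410 of 7801, 23216 and 7784 marker UMIs there. In AOM PN they gave 11649, 4114 and 27478 of 33514, 43019 and 48087. At the ratio of Car8 to 5 mast cell protease genes in mast-like cells, the AOM PN neutrophil sums would hold 22.6, 7.66 and 30.7 Car8 UMIs, and they held 20, 17 and 39.

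Neutrophil Car4 stood at 3.00, 1.40 and 5.02 CPM in Apc ICI against 4.01, 6.76 and 53.9 CPM in AOM PN. The Apc ICI levels rest on few cells: 1 cell held 15 of the 17 UMIs of replicate 1, and 1 cell held 22 of the 23 of replicate 3. The 17 UMIs of replicate 2 came from 12 cells. The groups overlapped, and replicate 3 of AOM PN was far above the others, with 524 UMIs in 109 cells. The log2 change of 3.26 ± 0.94 (SE, edgeR adjusted p = 0.0278) lost its call without Apc ICI replicate 1 (adjusted p = 0.0872), without Apc ICI replicate 2 (adjusted p = 0.102) and without AOM PN replicate 3, when it was 1.42 (adjusted p = 0.0565). The UMIs lay mainly in neutrophils led by Il23a and Cxcl2, at 10.5 CPM in Apc ICI against 47.0 CPM in AOM PN. Neutrophil Car2 stood at 7.85 to 11.8 CPM in Apc ICI and 4.85 to 7.82 CPM in AOM PN and did not pass the test (log2 change -0.12, adjusted p = 0.747). At the erythroid-like ratio to haemoglobin, these sums would hold 109, 91.0 and 189 Car2 UMIs in Apc ICI and 114, 90.0 and 8.70 in AOM PN. They held 46, 95 and 54 against 46, 92 and 76. Car1, Car9, Car12 and Car13 had too few counts to test, with 0 to 41, 1 to 8, 0 to 2 and 0 to 4 UMIs per library. Mean Car1 levels were 1.64 CPM in Apc ICI and 0.113 CPM in AOM PN, with overlap.

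In monocyte/macrophage-like cells, where 2.74% of 10972 genes were called (1.68% lower in AOM PN), none of 4 members tested was, with log2 changes of -1.10 for Car2, -0.35 for Car9 and 0.20 for Car13 (edgeR adjusted p = 0.306, 0.585 and 0.875). Car4 there stood at 0, 48.4 and 19.3 CPM in Apc ICI against 2.78, 0.963 and 4.23 CPM in AOM PN (log2 change -2.91 ± 1.10 SE, edgeR adjusted p = 0.174), and 6 cells held all 287 UMIs of Apc ICI replicate 2. Without Apc ICI replicate 1, which had none, the change was -3.54 (adjusted p = 0.0293), and with no filter on low counts it was -2.87 (adjusted p = 0.00621). This class held 0 of 17, 287 of 308 and 47 of 70 Car4 UMIs of Apc ICI replicates 1 to 3, or 84.6% pooled and 54.0% without replicate 2, and the 17 of replicate 1 were all in neutrophil-like cells. In AOM PN neutrophil-like cells held 43.7%, 60.6% and 78.3%, or 71.9% pooled and 54.8% without replicate 3, and monocyte/macrophage-like cells held 44.8% in replicate 1. Car8 in monocyte/macrophage-like cells stood at 0, 0.169 and 0.411 CPM in Apc ICI against 1.07, 0.481 and 1.69 CPM in AOM PN, without overlap but with too few counts to test. At the mast-like ratio to 5 protease genes these AOM PN sums would hold 18.7, 4.11 and 31.1 Car8 UMIs, and they held 15, 9 and 36. Car1 and Car12 had 0 to 12 and 0 to 3 UMIs per library, and the Car1 means of 1.22 CPM in Apc ICI and 0.0157 CPM in AOM PN overlapped. In T/NK-like cells, with 5.08% of 10432 genes called, Car2 had a log2 change of 0.93 (edgeR adjusted p = 0.422). Car8 there stood at 0, 1.23 and 0 CPM against 2.76, 3.16 and 2.86 CPM (log2 change 2.99 ± 0.80 SE, edgeR adjusted p = 0.0672), which passed with doublets kept (4.19, adjusted p = 0.0168) and with no filter on low counts (3.02, adjusted p = 0.0223). Mast cell markers there stood at 104 to 205 CPM against 723 to 2075 CPM. At the mast-like ratio the T/NK-like sums of AOM PN would hold 14.2, 6.80 and 19.2 Car8 UMIs, and they held 21, 19 and 25. Of the 19 in AOM PN replicate 2, 1 cell held 15. Car12 had 1 to 11 UMIs per library, and Car1, Car4, Car9 and Car13 had 0 to 7. No member was called in dendritic-like cells, where 1.24% of 8805 genes were, and the log2 changes there were -0.58 for Car2, 0.36 for Car9 and -0.61 for Car13 (edgeR adjusted p = 0.417, 0.660 and 0.486). Dendritic-like Car8 was seen as 1, 0 and 0 UMIs in the Apc ICI libraries against 9, 7 and 36 in those of AOM PN (0.554, 0 and 0 against 3.39, 1.37 and 4.44 CPM), without overlap. It entered no test with the filter on low counts and was higher with no filter (3.70, edgeR adjusted p = 0.0168), as was monocyte/macrophage-like Car8 (3.13, adjusted p = 0.0336). At the mast-like ratio the dendritic-like sums of AOM PN would hold 2.62, 0.927 and 16.8 Car8 UMIs. Car1, Car4 and Car12 had 0 to 3 UMIs per dendritic-like sum. In B-like cells, where 0.672% of 4911 genes were called, Car2 was the only member tested and had a log2 change of -0.07 (adjusted p = 0.981), while the other 6 members had 0 to 6 UMIs per library.

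**Figure D5:**
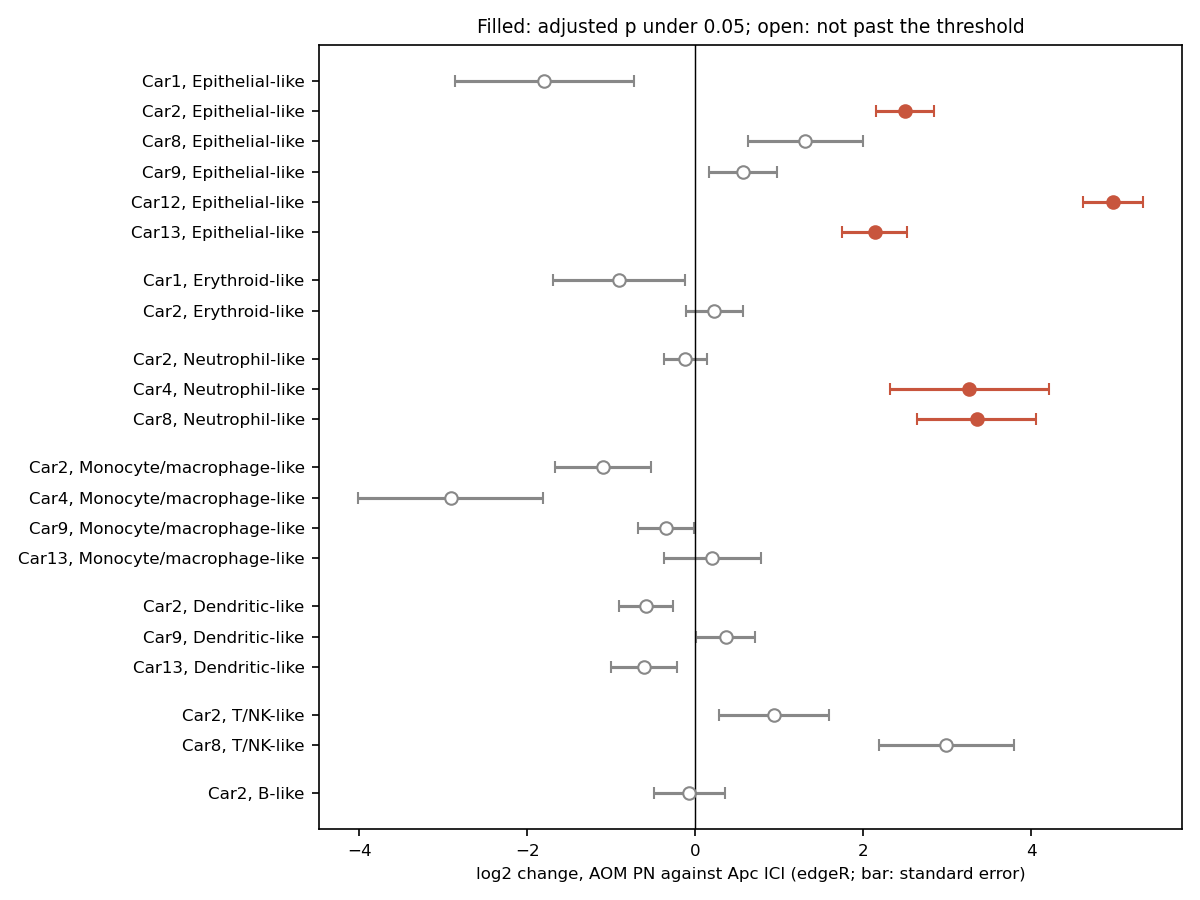
Fitted log2 change of each carbonic anhydrase gene, AOM PN over Apc ICI, per cell class with its standard error, with filled points where edgeR's adjusted p was below 0.05. Filled points are Car2, Car12 and Car13 in epithelial-like cells and Car4 and Car8 in neutrophil-like cells, all higher in AOM PN, and epithelial-like Car4, at 0 in Apc ICI replicates 1 and 3, is not drawn.

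Other genes of the bicarbonate pathway were read in the same epithelial fit. Of 9 further carbonic anhydrases only mitochondrial Car5b had enough counts to test, and it rose from 0.373 to 4.19 CPM (log2 change 3.67, edgeR adjusted p = 0.000654). Of 10 tested bicarbonate and chloride transporters 4 rose, 1 fell and 5 were not called, with a median log2 change of 0.28. The sulphate and chloride exchanger Slc26a2 rose from 18.2 to 94.7 CPM, the chloride channel Cftr from 5.21 to 22.7 CPM and the sodium bicarbonate cotransporters Slc4a4 from 22.2 to 98.1 CPM and Slc4a7 from 39.9 to 79.5 CPM. Best2, a bicarbonate channel of goblet cells, fell from 4.16 to 0.0978 CPM. Of 9 proton and lactate exporters 3 rose and 3 fell: the lactate transporter Slc16a1 rose (log2 change 1.59) and Slc16a3 fell (-1.16), and the apical sodium proton exchanger Slc9a3 fell (-2.33), with edgeR adjusted p-values of 0.00111, 0.00203 and 0.000106. Slc9a8 also rose (0.80) and the proton pump subunit Atp4a fell (-3.64).

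Of 8 tested genes of water and sodium uptake 5 rose and 1 fell, with a median log2 change of 0.82. The water channel Aqp4 rose from 5.19 to 28.9 CPM and the sodium channel subunit Scnn1a from 3.71 to 10.5 CPM, while its partner Scnn1b fell from 7.25 to 0.398 CPM. All 15 hypoxia targets and regulators on the list were tested, of which 4 rose, 3 fell and 8 were not called, with a median of 0.24. The factor Epas1 rose (log2 change 3.14), as did Hk2 (1.62), Egln3 (1.14) and Vegfa (0.95), whereas Bnip3 (-2.92), Ndrg1 (-2.57) and the glucose transporter Slc2a1 (-0.82) fell. Beside them stands Car9, which did not pass the test. Of the 3 inositol trisphosphate receptor genes, whose products Car8 can bind, Itpr1 fell (-0.93, edgeR adjusted p = 0.0175) and the others were not called.

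Of 10 tested surface colonocyte genes 8 rose and 1, Guca2a, fell, with a median log2 change of 2.64. This list was drawn up with earlier results of these samples known, so its direction is no independent evidence. The largest changes were those of Clca4a, Ceacam20, Clca4b and Saa1, at 0.0806, 0.787, 2.59 and 9.45 CPM in Apc ICI against 51.7, 42.0, 106 and 313 CPM in AOM PN. Of 10 tested erythroid genes 1, the iron carrier Slc25a37, rose, and the haemoglobin genes did not pass the test (log2 changes of -0.96 to -0.32).

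As a description with no test, the genes most like each member were found by Pearson's r of log2(CPM + 1) over 49 class-by-library sums, which share libraries and depths. For Car1 these were Agr2, Ttr and Guca2a (r = 0.83, 0.82 and 0.82), for Car2 Tfdp2, Rnf10 and Yod1 (0.82, 0.79 and 0.78) and for Car4 Slc40a1, C1rl and Ereg (0.69, 0.69 and 0.68). Car8 was most like Gata2, Fcer1a and Ms4a2, with r = 0.94 for each, Car9 like 5033406O09Rik, Snx7 and 6330403L08Rik (0.88, 0.87 and 0.86), Car12 like Trpm6, Gm45889 and Npas2 (0.93 for each) and Car13 like Vdr, Flrt3 and Stxbp6 (0.91, 0.90 and 0.90).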

How the data were processed

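Single-cell 3' libraries (10x v3 chemistry) of live cells sorted by DAPI were deposited by the authors as UMI count matrices with no normalization, made with Cell Ranger 6.1.2 and mm10 per the submitters' processing notes. The annotation and the cell calling rule are not given in the sources used here. Barcodes under 200 genes or over 20% mitochondrial UMIs were dropped, and doublets were predicted from simulated doublets and left out. Their rate was 0.8% per 1000 deposited barcodes of the library, a count that includes the barcodes dropped by the other filters. Values of 2000 variable genes, with carbonic anhydrase genes excluded, were reduced to 30 components and clustered (Leiden, resolution 1, 20 neighbours; Python 3.11.15, scikit-learn 1.9.0, leidenalg 0.10.2). A cluster took a class name from at least 3 detected markers of that class. A rule set after the clusters were seen left clusters with over 20% haemoglobin UMIs unnamed unless erythroid, 1 of them epithelial. Counts were summed per library and class where at least 20 cells were present, which gave 7 classes testable in all 6 libraries.

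Sums were tested with edgeR 4.0.16 (R 4.3.3; filterByExpr, TMM, quasi-likelihood F test, no block), with DESeq2 1.42.0 among the alternatives. All p-values were adjusted over all genes tested in a fit, and the tests were checked on simulated data. Counting intervals are exact at 95%, and cover counting error only. The members, gene lists and tests were chosen with earlier results of these data known. All 7 members are given in each tested class, those with too few counts as UMIs per library, and of each list the called genes with the largest changes, at most 4 in each direction, plus genes needed for a count. Promoters are from RefSeq (GRCm38.p6) and matched 3 of the 7 members by symbol. Values of some genes and of 1 erythroid-like cluster are not reported here.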

Additional observations from a re-analysis of the deposited data

Results flagged for a closer look

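The epithelial-like and erythroid-like log2 changes of Car2 between the models differed by 3.10 ± 0.68 (SE, edgeR adjusted p = 0.00132) in a joint fit, which brought Car2 up for a closer look. The call was lost in 3 of 13 alternatives, without Apc ICI replicate 1 (2.53, adjusted p = 0.386), without Apc ICI replicate 3 (3.02, adjusted p = 0.0603) and with cells thinned to 1500 UMIs (3.32, adjusted p = 0.0964). Car2 was higher in AOM PN epithelial-like cells in 3 of 3 libraries, while the erythroid-like levels overlapped. The part of haemoglobin content or cell depth in this difference was not tested beyond the alternatives given under the processing.

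Members were also counted in barcodes that entered no comparison. Barcodes with fewer than 200 genes held 47 UMIs of Car1, 2874 of Car2, 8 of Car4, 61 of Car8 and 17 of Car9, which was 0.459% to 5.64% of each gene's UMIs in the matrices. Barcodes left out for mitochondrial content or as predicted doublets held 1137 UMIs of Car1, 10959 of Car2, 385 of Car4, 2021 of Car8, 1291 of Car9, 269 of Car12 and 352 of Car13. For Car1 this was 49.5% of its UMIs, more than the 48.5% in kept cells, and for Car12 it was 42.6%, against 18.8% for Car8. With doublets kept, epithelial-like Car1 stood at 9.08, 60.7 and 50.8 CPM in Apc ICI against 4.45, 8.84 and 6.67 CPM in AOM PN, and all 3 Apc ICI libraries then lay above all AOM PN libraries.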

How the results depend on the processing

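The 4 calls among 7 members in epithelial-like cells became 4 to 6 with DESeq2, no filter on low counts, doublets kept (6), a 10% mitochondrial limit, haemoglobin genes left out or haemoglobin-rich cells kept (an alternative added after seeing the data). With cells thinned to 1500 UMIs 2 were called, and only Car2, Car9 and Car12 had enough counts to test. Leaving out 1 library gave 4 to 5 in epithelial-like cells, 0 to 1 in erythroid-like cells, 1 to 4 in white cells and 0 to 1 for the difference between classes. In erythroid-like cells the call gained was Car8, higher without Apc ICI replicate 2 (2.81, edgeR adjusted p = 0.0372) or AOM PN replicate 2 (3.09, adjusted p = 0.00742), while mast cell markers in these sums stood at 8.83 to 33.8 CPM in Apc ICI against 93.9 to 1301 CPM in AOM PN, and their part in it was not tested. In white cells the 2 calls became 8 with no filter (5 higher, 3 lower) and 1 with thinned cells, 4 without Apc ICI replicate 1 (1 higher, 3 lower) and 1 without Apc ICI replicate 2 or AOM PN replicate 3. The difference for Car2 lost its call with thinned cells (0 called; 3.32, adjusted p = 0.0964). The 36 called of 65 tested genes of all lists (55.4%, against 32.1% of all genes) became 30 to 38. These lists include the surface colonocyte, erythroid and hypoxia genes and were chosen with earlier results of these data known. Their share against that of all genes is therefore no independent evidence. Leaving out 1 library of a model, chosen after seeing the data, moved the Car9 share held by AOM PN mast-like cells over 35.6% to 74.9% and the Car4 share held by Apc ICI monocyte/macrophage-like cells over 54.0% to 88.4%.

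Differences in the share of cells with a UMI (AOM PN minus Apc ICI, percentage points) changed sign for Car1 at 3000 UMIs (0.418), for Car8 at 1000 UMIs (-0.0193) and unthinned (-0.250), and for Car9 at 1000 UMIs (-0.545) and unthinned (-2.65). Leaving out 1 library moved them over -1.61 to 0.155 for Car1, -0.152 to 0.606 for Car8 and -0.393 to 1.48 for Car9.

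Uncalled log2 changes also changed sign. Leaving out 1 library moved Car9 in epithelial-like cells over -0.11 to 0.80, Car1 in erythroid-like cells over -1.89 to 0.25, Car2 in erythroid-like cells over -0.32 to 0.45, in neutrophil-like cells over -0.25 to 0.17 and in B-like cells over -0.049 to 0.32 (where it passed the filter on low counts), and Car13 in monocyte/macrophage-like cells over -0.75 to 0.60. Car2 in erythroid-like cells was -0.34 with no filter and -0.027 with doublets kept, and Car13 in monocyte/macrophage-like cells was -0.015 with doublets kept and -0.40 with thinned cells. The causes were not tested.

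Replicate numbers showed no clear pairing of the samples. Deviations of same-numbered sums correlated at -0.10, 0.13 and -0.14 in epithelial-like cells and at -0.12, -0.36 and -0.10 in erythroid-like cells. Different-numbered epithelial sums correlated at -0.23 to 0.26. With 3 libraries per model these values cannot exclude a pairing. With the replicate number as a block, Car2 in epithelial-like cells had a log2 change of 2.61 (adjusted p = 0.00078), and no member gained or lost a call. Sparse counts of Car4, Car8, Car12 and Car13 limit what these depths can show.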
